A study of Mus musculus with 12 samples.

Results

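Basophils and mast cells express genes for granule proteases, histamine synthesis and IgE binding, some shared and some known from only 1 of these cell types, and 8 such genes are described here: Prss34, Mcpt8, Cpa3, Hdc, Fcer1a, Ms4a2, Cd200r3 and Gata2. They were found on the array by gene symbol, and each had 1 transcript cluster, the array's unit for a gene or transcript. All 8 were bright enough to be tested, among 19116 named genes and 37240 transcript clusters that were, of 65956 on the array.

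The arrays, 12 in all, had been read from bone marrow monocytes and macrophages that were isolated magnetically, 1 array per mouse. Every animal was Rag2-/-gamma c-/- on a BALB/c background, a strain without T, B and natural killer cells that accepts human cells. MEC1, a cell line from a human chronic lymphocytic leukemia of B cells, was given into the vein of 6 mice. The other 6, of matching age and the same genotype, carried no MEC1. The MEC1 21 d group (3 mice, 11 weeks old) was in early leukemia and was set against the no MEC1 21 d group (3 mice, 11 weeks old). The MEC1 31 d group (3 mice, 13 weeks old) was in late leukemia and was set against the no MEC1 31 d group (3 mice, 13 weeks old). The model is limited to 1 human line in hosts that lack lymphocytes, and the labels give no basophil or mast cell sort.

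Basophils and mast cells are rare granulocytes that bind IgE through a high-affinity receptor and release histamine and proteases when it is cross-linked. In mice basophils mature in the bone marrow and circulate, while mast cell progenitors leave the marrow and mature in tissues. GATA2 is a transcription factor needed for both cell types, and mouse basophils carry a protease repertoire that differs from that of mast cells.

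Values are log2 intensities, so a difference of 1 is a doubling of probe brightness, and the brightness of different probes does not rank abundance. Hybridisation controls, bacterial and phage transcripts added in fixed amounts, averaged 11.9 ± 0.118 in MEC1 21 d and 10.8 ± 0.0869 in no MEC1 21 d mice. They averaged 12.6 ± 0.540 in MEC1 31 d and 10.6 ± 0.128 in no MEC1 31 d mice (SD, n = 3 each). The groups held 92.1% of the variance of this level, so that it and MEC1 cannot be told apart in a fit with it as a term. MEC1 31 d replicate 3 stood farthest out, at 13.2. Poly-A controls, a separate set of added transcripts, were also higher with MEC1. They ran from 7.6 to 7.8 in MEC1 21 d and from 7.0 to 7.1 in no MEC1 21 d mice. At 31 days they ran from 7.8 to 8.6 with MEC1 and from 6.3 to 7.6 without.

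The 8 genes were checked against markers of the cells in their name. On no array was Prss34 below the 96.4th percentile of clusters or Mcpt8 below the 96.9th, both proteases known from mouse basophils. The probes of Fcer1a, Ms4a2 and Cd200r3 were dimmer, between percentiles 64.6 and 84.7 over all arrays. Of 17 listed basophil receptors and cytokines on the array, 13 passed the filter on low values. Among them were Il3ra (percentiles 81.6 to 84.5), Csf2ra (81.8 to 90.3) and Il4 (41.2 to 64.3). Itga2, Ptgdr2, Il13 and Grm6 did not pass it, and none of these exceeded percentile 58.1. The basophil side of the name rests here mainly on the bright probes of Prss34 and Mcpt8, themselves among the 8 genes. Of 7 defining mast cell markers, 5 (Tpsab1, Tpsb2, Cma1, Mrgprb1 and Mrgprb2) did not pass the filter on low values, and none of the 5 exceeded the 54.6th percentile on any array. Kit, which passed, is also a marker of stem and progenitor cells. The probes of the mast cell tryptases, chymase and Mrgprb receptors were thus dim on all arrays, and the mast cell side of the name is not borne out by these probes.

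At 31 days 7 of the 8 genes fell with MEC1, and none rose. Of all tested clusters 21.1% fell and 22.6% rose. In the same 7 genes every MEC1 mouse lay below every mouse without MEC1, against 28.4% of all clusters. The median change of the 8 genes was -1.38 on the log2 scale, against -0.11 over all named genes. A gene passed at an adjusted p under 0.05 in limma's moderated test, with Benjamini-Hochberg adjustment over all tested clusters. In bulk RNA, fewer cells of a type and less of an RNA per cell cannot be told apart.

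**Figure D1:**
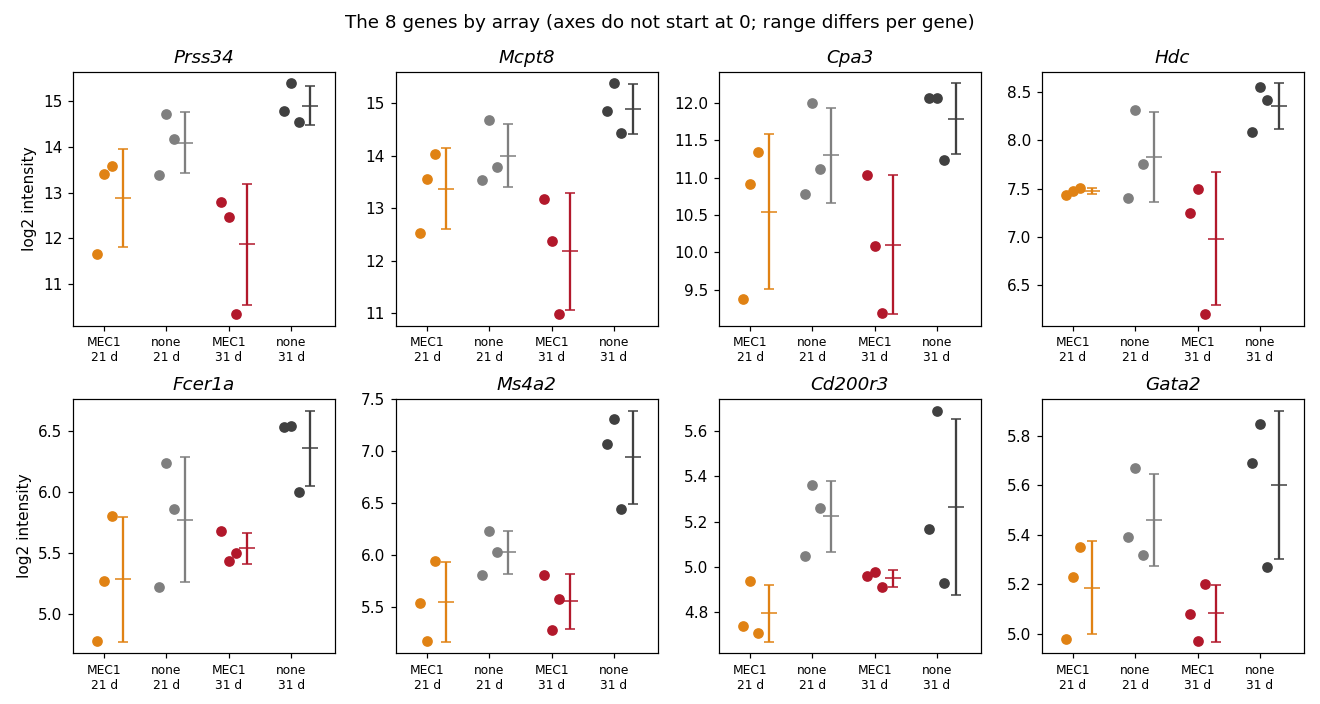
Log2 intensity of the 8 genes in each of the 12 mice, 1 panel per gene, with MEC1 left of no MEC1 (none) at 21 and 31 days. Points are mice, and the bar beside them is the group mean with its SD (n = 3). At 31 days the MEC1 points lie below all points without MEC1 in every panel but that of Cd200r3.

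Among the granule proteases the largest fall was that of Prss34, a serine protease released by mouse basophils. Its log2 intensity at 31 days was 12.80, 12.46 and 10.34 in MEC1 mice, against 14.79, 15.39 and 14.54 in mice without MEC1. The groups did not overlap, and MEC1 31 d replicate 3 lay far below the other MEC1 mice. Prss34 fell by 3.04 (SE 0.669, adjusted p = 0.00582, limma), an 8.22-fold lower intensity. Without MEC1 31 d replicate 3 it fell by 2.28 and still passed (adjusted p = 0.0166).

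Mcpt8, a granule protease used to mark basophils in mice, gave 13.18, 12.38 and 10.98 in MEC1 31 d mice, against 14.86, 15.38 and 14.43 in no MEC1 31 d mice. Again no value overlapped, and the same MEC1 mouse was lowest. Mcpt8 fell by 2.71 (SE 0.556, adjusted p = 0.00425, limma), or 6.54-fold in intensity. Without that mouse it fell by 2.11 (adjusted p = 0.0128).

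Cpa3, a carboxypeptidase stored in the granules of mast cells and basophils, gave 11.04, 10.08 and 9.18 in MEC1 31 d mice, against 12.06, 12.06 and 11.24 in no MEC1 31 d mice. The groups did not overlap, but the highest MEC1 mouse came close to the lowest mouse without MEC1. Cpa3 fell by 1.69 (SE 0.571, adjusted p = 0.0350, limma). The call was lost when any of 4 mice was left out: without MEC1 31 d replicate 2 the adjusted p was 0.0722 and without replicate 3 it was 0.134. Without no MEC1 31 d replicate 1 it was 0.0912 and without replicate 2 it was 0.0987.

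Hdc encodes histidine decarboxylase, which makes histamine. It gave 7.25, 7.50 and 6.20 in MEC1 31 d mice, against 8.09, 8.55 and 8.42 in no MEC1 31 d mice. The groups stood apart, with MEC1 31 d replicate 3 again lowest. Hdc fell by 1.37 (SE 0.322, adjusted p = 0.00786, limma), and by 0.98 without that mouse (adjusted p = 0.0186).

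Of the IgE receptor chains, Ms4a2 fell more than Fcer1a. Ms4a2, the beta chain that amplifies the receptor's signal, gave 5.81, 5.28 and 5.57 in MEC1 31 d mice, against 7.07, 7.31 and 6.44 in no MEC1 31 d mice. All MEC1 mice were well below, and no single mouse carried the difference. Ms4a2 fell by 1.39 (SE 0.263, adjusted p = 0.00294, limma), the smallest p among the 8 genes, and kept the call whichever mouse was left out (adjusted p at most 0.0148). The difference between the falls of the 2 chains was not tested.

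Fcer1a, the alpha chain that binds IgE, gave 5.68, 5.43 and 5.50 in MEC1 31 d mice, against 6.53, 6.54 and 6.00 in no MEC1 31 d mice. The groups did not overlap, and they were closest at the third mouse without MEC1. Fcer1a fell by 0.82 (SE 0.300, adjusted p = 0.0465, limma). It lost the call in 7 of 12 fits that each left out a mouse: any MEC1 31 d mouse, no MEC1 31 d replicate 1 or 2, MEC1 21 d replicate 2 or no MEC1 21 d replicate 3. The adjusted p then ran between 0.0605 and 0.130.

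Cd200r3, an activating receptor of mouse basophils and mast cells, was the gene that did not pass. It gave 4.96, 4.98 and 4.91 in MEC1 31 d mice, against 5.17, 5.69 and 4.93 in no MEC1 31 d mice. The third mouse without MEC1 lay among the MEC1 mice, so the groups overlapped. The change was -0.31 (SE 0.189, 95% interval -0.73 to 0.10, adjusted p = 0.191, limma).

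Gata2 gave 5.08, 4.97 and 5.20 in MEC1 31 d mice, against 5.69, 5.85 and 5.27 in no MEC1 31 d mice. The groups were separate by a narrow margin, at the third mouse of each group. Gata2 fell by 0.52 (SE 0.182, adjusted p = 0.0397, limma), the smallest fall that passed. It lost the call in 6 of those 12 fits: without any MEC1 31 d mouse, no MEC1 31 d replicate 1 or 2, or MEC1 21 d replicate 2. The adjusted p then ran between 0.0537 and 0.144.

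Because bright clusters as a whole were lower with MEC1 at 31 days, each gene was also set beside the clusters whose mean in mice without MEC1 lay within 0.5 of its own. All 8 genes lay below the median change of those clusters. For Prss34 that median was -0.88, and 1.5% of 267 such clusters had a lower change. For Mcpt8 it was -0.86, and 3.73% of 268 had a lower change. For Ms4a2 it was -0.61, and 12.1% had a lower change. For Cpa3, Hdc, Fcer1a, Gata2 and Cd200r3 that share ran between 24.6% and 33.0%. Changes of that size were thus common among clusters at the level of these 5 genes.

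**Figure D2:**
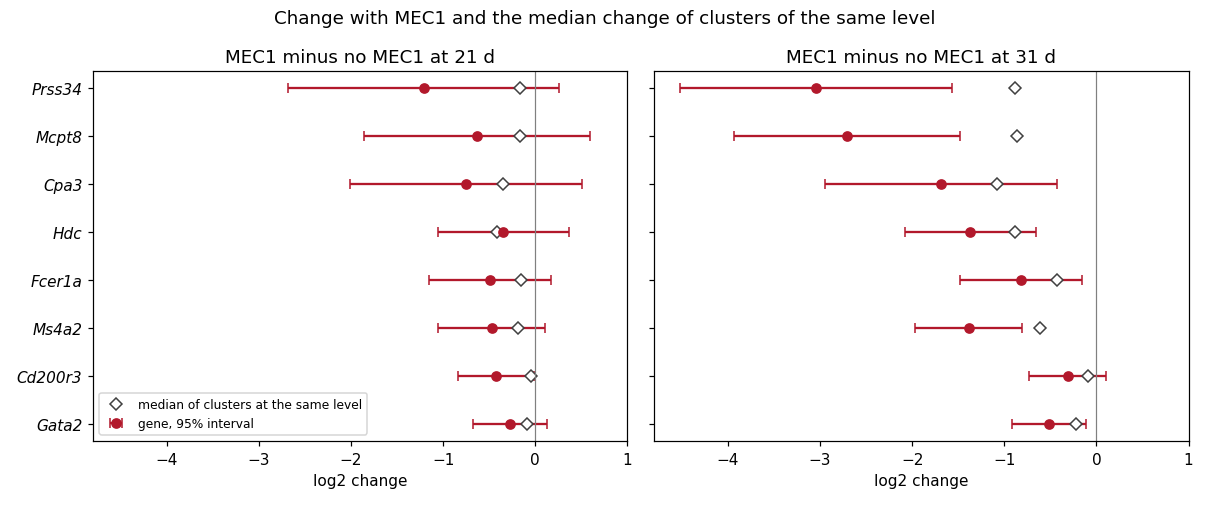
Log2 change with MEC1 for each of the 8 genes at 21 days (left) and 31 days (right), with its 95% interval from limma, and as open diamonds the median change of clusters of the same level. At 31 days the intervals of Prss34, Mcpt8 and Ms4a2 lie wholly below their diamonds, and 7 of 8 intervals lie below 0.

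In a fit that took the control level as a covariate none of the 8 genes passed at 31 days, and the change of Prss34 turned to 1.91 and that of Mcpt8 to 1.48. In that fit 7 of all 37240 clusters passed at 31 days. Quantile normalization, which forces all arrays to 1 distribution, left 4 calls, of Prss34, Mcpt8, Ms4a2 and Gata2. Array medians averaged higher by 0.43 in MEC1 31 d than in no MEC1 31 d mice, so centring arrays on them lowered every change by that amount, and Cd200r3 then passed too (-0.74, adjusted p = 0.0161).

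At 21 days none of the 8 genes passed in limma, against 2.51% of clusters that fell and 1.83% that rose. All 8 changes were below 0, with a median of -0.48, and 1 gene had an unadjusted p under 0.05. The median change of clusters at the same level was also below 0 for each gene, between -0.41 and -0.05. Of the 8 genes 7 lay below that median, and Hdc lay above it. Between 9.96% and 55.2% of those clusters had a lower change. Prss34 gave 11.65, 13.40 and 13.59 in MEC1 21 d mice, against 13.39, 14.71 and 14.18 in no MEC1 21 d mice. MEC1 21 d replicate 1 was the lowest, and the other MEC1 mice lay within the range of those without. The change was -1.21 (SE 0.669, adjusted p = 0.295, limma), and -0.60 without that mouse (adjusted p = 0.699).

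Mcpt8 gave 12.53, 13.55 and 14.04 in MEC1 21 d mice, against 13.54, 14.68 and 13.79 in no MEC1 21 d mice, a change of -0.63 (SE 0.556, adjusted p = 0.503, limma). Cpa3 gave 9.37, 10.92 and 11.34 in MEC1 21 d mice, against 10.78, 12.00 and 11.11 in no MEC1 21 d mice. In both genes the first MEC1 mouse was lowest and the groups overlapped, and Cpa3 changed by -0.75 (SE 0.571, adjusted p = 0.436, limma).

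Cd200r3 was the only 1 of the 8 without overlap at 21 days, where 13.7% of all clusters lay wholly lower with MEC1. It gave 4.74, 4.94 and 4.71 in MEC1 21 d mice, against 5.05, 5.36 and 5.26 in no MEC1 21 d mice. Its change of -0.43 was the one with the unadjusted p under 0.05, and it did not pass after adjustment (SE 0.189, adjusted p = 0.204, limma).

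Hdc was nearly level in MEC1 21 d mice, at 7.44, 7.48 and 7.51, against a wide 7.40, 8.32 and 7.76 in no MEC1 21 d mice. Fcer1a gave 4.78, 5.27 and 5.80 in MEC1 21 d mice, against 5.22, 6.24 and 5.86 in no MEC1 21 d mice. Ms4a2 gave 5.54, 5.17 and 5.94 in MEC1 21 d mice, against 5.81, 6.23 and 6.03 in no MEC1 21 d mice. In each of these genes at least 1 MEC1 mouse lay above the lowest mouse without MEC1. Gata2 gave 4.98, 5.23 and 5.35 in MEC1 21 d mice, against 5.39, 5.67 and 5.32 in no MEC1 21 d mice. The changes of these 4 genes lay between -0.49 and -0.27, with adjusted p of 0.298 to 0.520 (limma).

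The difference between the effects of MEC1 at the 2 days did not pass for any gene (limma), and 3 of the 8 had an unadjusted p under 0.05. It was below 0 in 7 genes, and of all clusters 0.00269% passed above 0 and 0% below. Mcpt8 had the largest difference, -2.08 (SE 0.786, adjusted p = 0.352, limma), and that of Prss34 was -1.83 (SE 0.946, adjusted p = 0.424, limma). Hence the call at 31 days and its absence at 21 days do not show that the effects differed.

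Between the days, none of the 8 genes passed with MEC1 or without it (limma). In MEC1 mice, 5 genes had a change below 0 at 31 against 21 days and 3 above 0, no gene had groups without overlap, and none had an unadjusted p under 0.05. Of all clusters 0.137% rose and 0.0886% fell, and 8.27% lay wholly higher and 9.47% wholly lower. Mcpt8 changed by -1.19 (SE 0.556, adjusted p = 0.299, limma) and Ms4a2 by 0.00 (95% interval -0.58 to 0.58). In mice without MEC1 all 8 genes had a change above 0, and 1 had an unadjusted p under 0.05. Of all clusters, 0% rose and 0.00806% fell.

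The gene with the unadjusted p under 0.05 without MEC1 was Ms4a2. It gave 7.07, 7.31 and 6.44 in no MEC1 31 d mice, against 5.81, 6.23 and 6.03 in no MEC1 21 d mice. All older mice lay above all younger ones, as in 6.22% of clusters, and the change was 0.92 (SE 0.263, adjusted p = 0.396, limma). Mcpt8 changed by 0.89 (adjusted p = 0.921) and Prss34 by 0.81 (adjusted p = 0.961), both with overlap. The highest of the 4 group means was thus that of no MEC1 31 d mice in all 8 genes. The lowest was that of MEC1 31 d mice in 5 genes and that of MEC1 21 d mice in Fcer1a, Ms4a2 and Cd200r3, and no gene passed between the days within either condition. The comparisons at 31 days and between days share those 3 mice.

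Within a group, the 8 genes were often highest or lowest in the same mouse. In no MEC1 21 d mice, replicate 2 was highest in 8 of 8 genes, where it was highest in 26.0% of all tested clusters. Replicate 1 of that group was lowest in 7 (35.9%). In no MEC1 31 d mice, replicate 2 was highest in 7 genes (43.9% of clusters) and replicate 3 lowest in 7 (33.7%). In MEC1 21 d mice, replicate 1 was lowest in 6 (36.3%) and replicate 3 highest in 7 (35.0%). In MEC1 31 d mice replicate 1 was highest in 5 of 8 (33.7%). Replicate 3 of that group was lowest in 5 of 8, not far above its 39.3% of all clusters. These are counts over genes of the same arrays and carry no test.

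**Figure D3:**
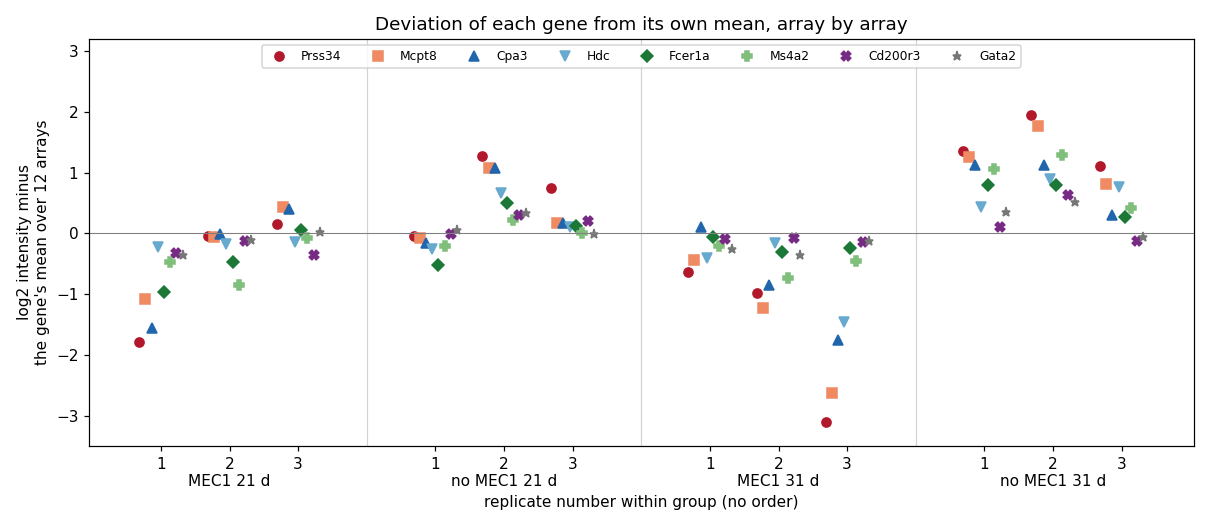
Log2 intensity of each of the 8 genes minus its own mean over the 12 arrays, by group and replicate. Prss34 and Mcpt8 spread farthest and differ from each other by at most 0.705 in any array, while Gata2 and Cd200r3 stay near 0.

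The root mean square difference of the centred values of Prss34 and Mcpt8 over the 12 arrays was 0.340, and none of 13305 other named genes was closer to either. Mcpt8 and Cpa3 differed by 0.422, with 30 of those genes closer to Mcpt8 and 85 closer to Cpa3. Fcer1a and Ms4a2, which sit in 1 receptor, differed by 0.312, with 293 genes closer to Fcer1a and 58 closer to Ms4a2. Gata2 differed from Fcer1a by 0.330, with 4357 genes closer to Gata2 and 476 closer to Fcer1a. It differed from Cd200r3 by 0.175, with 159 genes closer to Gata2 and 62 closer to Cd200r3. The measure is smaller for genes with little spread, as these dimmer genes have, so the differences do not rank the pairs.

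Outside the 8 genes, the nearest to Prss34 was Snord104, at 0.374, a small nucleolar RNA, and the nearest to Mcpt8 was Myb, at 0.348, a transcription factor of blood progenitors. The nearest to Cpa3 were Lsm7 at 0.243 and the ribosomal protein gene Rpl38 at 0.272. Gzf1 was nearest to Fcer1a at 0.183 and Tent5a to Ms4a2 at 0.210. Sharpin was nearest to Hdc at 0.202, Capn15 to Gata2 at 0.103 and Clk2 to Cd200r3 at 0.135. All these genes share arrays and group differences, so likeness is a description over 12 arrays.

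GATA factors bind GATA motifs. The promoters of the 8 genes were searched for AGATAA and TGATAA, forms of this motif, because Gata2 is among the 8. A window of 300 bases, 250 before to 50 after each start site, was taken from RefSeq on GRCm38.p6, which gave 9 windows for the 8 genes. AGATAA, on either strand, stood in the windows of 5 of 8 genes (Prss34, Cpa3, Fcer1a, Ms4a2 and Cd200r3), against 11.2% of 32851 windows of all genes. TGATAA stood in 1, that of Cd200r3, against 9.05%. The E box CANNTG, which reads the same on both strands, stood in 7 of 9 windows, against 72.3%. Neither AGATAA nor TGATAA was in the windows of Mcpt8, Hdc and Gata2. Other forms of the GATA motif were not searched for, such as the TGATAG that the Hdc window holds.

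The windows of 3 granule protease genes and of Ms4a2, the genes with the largest falls beside Hdc, are printed in the 5′ to 3′ direction of the gene. Capitals mark AGATAA, or TTATCT where it lies on the other strand, and Mcpt8 has none.

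Prss34: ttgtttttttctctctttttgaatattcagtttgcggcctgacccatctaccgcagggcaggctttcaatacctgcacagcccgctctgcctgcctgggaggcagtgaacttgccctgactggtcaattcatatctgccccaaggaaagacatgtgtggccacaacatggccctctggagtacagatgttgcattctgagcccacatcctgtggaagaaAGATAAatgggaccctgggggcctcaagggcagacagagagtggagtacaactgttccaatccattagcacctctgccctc

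Mcpt8: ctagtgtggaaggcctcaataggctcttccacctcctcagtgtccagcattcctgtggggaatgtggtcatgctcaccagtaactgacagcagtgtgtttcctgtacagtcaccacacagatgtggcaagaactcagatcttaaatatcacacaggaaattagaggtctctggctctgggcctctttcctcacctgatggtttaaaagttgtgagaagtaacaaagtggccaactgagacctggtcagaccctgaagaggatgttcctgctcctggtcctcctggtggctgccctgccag

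Cpa3: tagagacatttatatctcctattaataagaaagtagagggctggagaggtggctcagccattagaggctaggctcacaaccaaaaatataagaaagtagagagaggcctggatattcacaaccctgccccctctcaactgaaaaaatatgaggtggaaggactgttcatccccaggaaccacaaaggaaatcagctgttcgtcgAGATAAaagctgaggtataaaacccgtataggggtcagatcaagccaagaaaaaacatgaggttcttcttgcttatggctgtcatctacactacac

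Ms4a2: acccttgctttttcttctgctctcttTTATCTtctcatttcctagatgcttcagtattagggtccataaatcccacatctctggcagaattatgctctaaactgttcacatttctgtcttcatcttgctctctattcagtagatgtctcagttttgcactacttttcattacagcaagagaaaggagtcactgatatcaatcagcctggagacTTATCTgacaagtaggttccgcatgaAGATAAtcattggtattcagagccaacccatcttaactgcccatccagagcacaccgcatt

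The Prss34 window is chr17:25298144-25298443 on the + strand, and its motif begins at -31 from the start site. The Mcpt8 window is chr14:56085148-56085447 on the - strand. The Cpa3 window is chr3:20242132-20242431 on the - strand, with a motif at -46. The Ms4a2 window is chr19:11623670-11623969 on the - strand, with motifs at -224, -37 and -11. Whether these motifs had a part in the falls was not tested. A match describes letters in a window and shows no bound site.

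Most of the tested genes around the IgE receptor fell too, but not all. Of 11 genes of IgE receptor signalling tested, 8 fell and 2 rose with MEC1 at 31 days, where 29.3% of named genes fell and 21.4% rose. These shares are not matched for level. Of clusters at the levels of Ms4a2, Hdc, Cpa3 and Prss34, 42.3%, 56.0%, 55.3% and 39.0% fell. Plcg2, a phospholipase of the receptor cascade, fell by 1.98 (SE 0.322, adjusted p = 0.00150, limma). The lipid phosphatase Inpp5d, which restrains the cascade, fell by 1.64 (adjusted p = 0.000736), and the kinase Syk fell by 1.63 (adjusted p = 0.00163). These 3 genes serve many blood cells, monocytes and macrophages included. At 21 days Syk alone of the 11 passed, with a fall of 1.35 (adjusted p = 0.0263), a call lost on leaving out any 1 of 5 mice of that day (adjusted p of 0.0506 to 0.0916).

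Of 8 tested genes of the mast cell granule and surface, 4 fell and 3 rose at 31 days, where 29.3% of named genes fell and 21.4% rose. Ctsg, a protease of neutrophil precursors and mast cells, fell by 1.94 (SE 0.520, adjusted p = 0.0139, limma). Kit, the stem cell factor receptor, fell by 1.87 (adjusted p = 0.00154), and Ndst2, which sulfates heparin, fell by 1.56 (adjusted p = 0.000901). The mast cell proteases Mcpt1 and Mcpt4 rose by 1.12 (adjusted p = 0.0100) and 0.64 (adjusted p = 0.00623), and the related Mcpt2 by 0.77 (adjusted p = 0.00766). In no MEC1 31 d mice Mcpt1, Mcpt4 and Mcpt2 averaged 3.84, 3.78 and 3.79, near the array medians of 3.80 to 3.81. The 3 rises thus start from values near the filter's limit and are not set against the falls of Prss34, Mcpt8 and Cpa3. All 3 rises lost the call with each array centred on its median (Mcpt1 0.69, adjusted p = 0.0782, Mcpt2 0.34, adjusted p = 0.129, and Mcpt4 0.21, adjusted p = 0.257), and Mcpt4 did not exceed the 61.7th percentile of any array.

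Of 13 tested basophil receptors and cytokines 2 fell, 1 rose and 10 did not pass at 31 days, among them Il3ra and Il4. The share that fell was thus below the 29.3% of named genes that did. Csf2ra, a chain of the GM-CSF receptor, fell by 1.54 (SE 0.252, adjusted p = 0.00151, limma). Cd200r1 fell by 0.65 (adjusted p = 0.0433) and Ifitm1 rose by 0.71 (adjusted p = 0.0425), but both calls were lost on leaving out any no MEC1 31 d mouse or MEC1 31 d replicate 2, among others (adjusted p up to 0.154 for Cd200r1 and 0.114 for Ifitm1). With arrays centred on their median Ifitm1 was at 0.28 (adjusted p = 0.447), and with quantile normalization Cd200r1 was at -0.49 (adjusted p = 0.194). Il3ra changed by -0.33 (adjusted p = 0.0932).

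All 13 tested transcription regulators listed for the basophil and mast cell branch fell at 31 days, where 29.3% of named genes fell. Their mean log2 level in no MEC1 31 d mice, 9.10 to 9.22, lay between the means of Hdc and Cpa3. At the levels of those 2 genes 56.0% and 55.3% of clusters fell. The median change of the regulators was -1.32, while Gata2 changed by -0.52. Zfpm1, a cofactor of GATA factors, fell by 4.27 (SE 0.728, adjusted p = 0.00180, limma) and Gfi1b by 3.62 (adjusted p = 0.000615), both also regulators of red cell precursors. Irf8, a regulator of monocytes that also acts in basophil and mast cell development in mice, fell by 2.62 (adjusted p = 0.000880). Cebpa, which directs progenitors towards granulocytes, fell by 2.49 (adjusted p = 0.00207). At 21 days Mitf, a regulator of mast cells, was the 1 of the 13 that passed, with a fall of 0.91 (adjusted p = 0.0144), lost without MEC1 21 d replicate 1 (adjusted p = 0.0561) or replicate 2 (adjusted p = 0.0514).

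Of 6 tested enzymes of lipid mediators and histamine breakdown, 1 fell at 31 days, where 29.3% of named genes fell. This was Ptgs2, which makes prostaglandin precursors and fell by 1.47 (SE 0.345, adjusted p = 0.00792, limma). The other enzymes, Hnmt for histamine breakdown and Hpgds for prostaglandin D2 among them, did not pass, at -0.16 and -0.01.

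**Figure D4:**
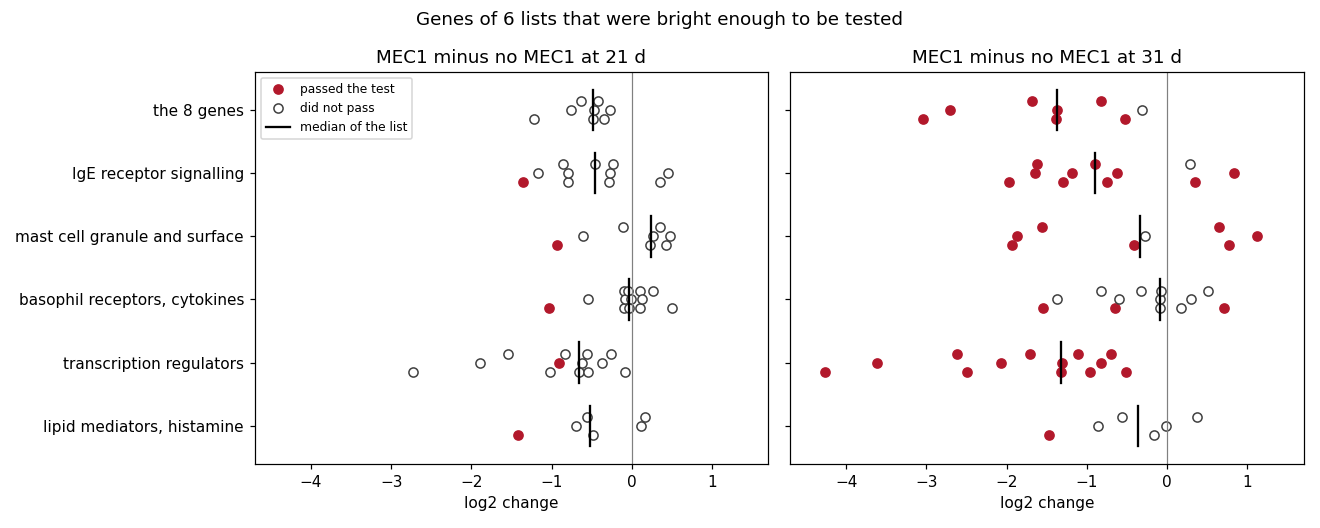
Log2 change with MEC1 at 21 days (left) and 31 days (right) of every tested gene in 6 lists, with filled points for genes that passed, open points for those that did not and a bar at the list's median. At 31 days 7 of the 8 genes and all 13 transcription regulators are filled and lie below 0, while the mast cell granule list lies on both sides of 0.

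Markers of other cells were read at 31 days too, beside the 29.3% of named genes that fell, a share not matched for level. Of 9 tested monocyte and macrophage markers 8 fell, and their mean log2 level was 10.3 to 11.9 in MEC1 31 d mice, against 12.8 to 12.9 in no MEC1 31 d mice. All 9 erythroid markers fell, at a mean level of 5.01 to 5.91 in MEC1 31 d mice, against 11.8 to 12.5 in no MEC1 31 d mice. Of 10 neutrophil markers 5 fell, with mean levels of 12.5 to 14.9 in MEC1 31 d mice, against 15.1 to 15.5 in no MEC1 31 d mice. Of 7 tested stem and progenitor markers 4 fell, and the 8 on the array had a mean level of 5.37 to 5.94 in MEC1 31 d mice, against 6.62 to 6.97 in no MEC1 31 d mice.

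The share that fell was below that of all named genes for eosinophil markers and near it for the few megakaryocyte markers. Of 7 eosinophil markers 1 fell, and that was Alox15, which fell by 2.28 (SE 0.733, adjusted p = 0.0285, limma), a call lost on leaving out any no MEC1 31 d mouse (adjusted p of 0.0587 to 0.0759). Their mean level was 8.84 to 10.5 in MEC1 31 d mice, against 10.1 to 10.6 in no MEC1 31 d mice. Of 4 tested megakaryocyte markers 1 fell, and the 5 on the array had a mean level of 5.34 to 6.05 in MEC1 31 d mice, against 5.45 to 5.97 in no MEC1 31 d mice. The 7 defining mast cell markers had a mean level of 4.13 to 4.32 in MEC1 31 d mice, against 4.01 to 4.23 in no MEC1 31 d mice. The mean level of the 8 genes was 7.24 to 8.23 in MEC1 31 d mice, against 8.91 to 9.60 in no MEC1 31 d mice. What part these cells, or the hybridisation-control level, had in the falls of the 8 genes was not tested.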

How the data were processed

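The deposited table held 1 column for each of 12 mice with log2 intensities per transcript cluster that the authors had made with Affymetrix Expression Console and RMA, per the submitters' processing notes. Versions and the genome build are not given in the sources used here. It was used as deposited. Of 72688 features 6732 controls were left out, and clusters had to exceed the median of their array in at least 3 arrays to enter the test. Gene symbols were those of the platform annotation (30604 clusters with 1 symbol, 2146 with several, 827 symbols updated).

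The means of the 4 groups were modelled in limma 3.58.1 (R 4.3.3) with empirical Bayes. Benjamini-Hochberg adjustment of the two-sided p-values ran over all 37240 clusters (threshold 0.05). The fit was tested on simulated data. The number of arrays limits the precision. Mouse numbers in the labels mark separate animals.

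The 8 genes and the 12 other lists were chosen with earlier results of these data known. Named from each list were at most 4 genes per MEC1 comparison that passed with the largest change, and for likeness the 3 nearest of 13305 named genes, of which the closest are printed. Genes named only to account for a list (the 5 dim mast cell markers, Itga2, Ptgdr2, Il13, Grm6, Il3ra, Il4, Hnmt, Hpgds, Mcpt2 and Mcpt4) were chosen after their values were seen. Alternatives were quantile normalization, median centring, other filters, 6 arrays alone, array weights, trend and robust, a control covariate, a replicate block, a 1.5-fold minimum and leaving out each array.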

Additional observations from a re-analysis of the deposited data

How the results depend on the processing

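The number of genes among the 8 that fell at 31 days was 7 in the reported fit, 4 with quantile normalization, 0 with the hybridisation-control level as covariate and 8 with arrays centred on their medians, and it ranged between 4 and 7 when each mouse was left out (4 without no MEC1 31 d replicate 1 or 2, or MEC1 31 d replicate 2 or 3). Array weights gave 4 falls at 21 days, where 7476 of all 37240 clusters fell in that fit. They gave 1 fall (Mcpt8) at 31 against 21 days with MEC1, where 7735 of all clusters passed and 4363 fell. With the covariate the change at 31 days turned for Prss34 (1.91), Mcpt8 (1.48), Cpa3 (1.79), Hdc (0.65), Plcg2 (0.72), Ctsg (1.73), Csf2ra (0.18), Cd200r1 (0.57), Mcpt2 (-0.20), Cebpa (0.79), Ptgs2 (0.33), Alox15 (2.34) and Myb (0.63), none of which passed. At 21 days it turned for Prss34 (1.58), Mcpt8 (1.74), Cpa3 (1.21) and Hdc (0.79). At 31 against 21 days with MEC1 it turned for Prss34 (0.65), Mcpt8 (0.22), Cpa3 (0.73) and Hdc (0.19), and in the difference of effects for Prss34 (0.33) and Cpa3 (0.58). Changes near 0 turned with quantile normalization (Hdc at 21 days 0.0247, Cd200r3 in the difference -0.0224), with median centring (31 against 21 days with MEC1, Ms4a2 -0.17 and Cd200r3 -0.0233, and Cd200r3 in the difference -0.12) and with array weights (Cd200r3 between days without MEC1, -0.11). When each mouse was left out, the change between days with MEC1 ranged between -0.19 and 0.20 for Ms4a2 and between -1.03 and 0.0167 for Cpa3, that of Cd200r3 between days without MEC1 ranged between -0.17 and 0.21, and its difference of effects between -0.0533 and 0.33. The cause of these turns was not tested. Prss34 and Mcpt8 kept their call at 31 days in 21 of 22 alternatives, as did Ms4a2, and Fcer1a and Gata2 lost theirs in 10 of 22.

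Over all clusters the calls at 31 days numbered 16297, and 10646 with quantile normalization, 30065 without a filter, 10483 at the 70th percentile and 7 with the covariate. They ranged between 10647 (without no MEC1 31 d replicate 2) and 16847 when each mouse was left out, with 10859 without MEC1 31 d replicate 3. Median centring gave 2785 rises and 13739 falls, against 8430 and 7867 in the reported fit. At 21 days there were 1615 calls, with 15923 under array weights, 1066 with quantile normalization, 454 from the 6 arrays alone, 831 with the replicate block and 4 with the covariate, and between 330 and 2883 when each mouse was left out. Same-numbered mice did not pair: of 18 correlations between them, -0.36 to 0.42, 4 exceeded 0.1. With the replicate block 5 of the 8 genes fell at 31 days, and Fcer1a (adjusted p = 0.0617) and Gata2 (adjusted p = 0.0593) were no longer called. Each gene had 1 cluster, so the alternative of a second cluster gave no value.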
